A study of Mus musculus with 12 samples.

Results

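Interferons are secreted proteins that signal through JAK kinases and STAT factors to switch on genes that detect and block viruses. The same signals raise the genes of MHC class I presentation, which carry peptides cut by the proteasome to the cell surface on a heavy chain paired with β2-microglobulin. Skeletal muscle fibres keep MHC class I low at rest, and its rise is a known feature of inflammatory muscle disease. A set of 39 genes was examined here, chosen by symbol for their known roles in these pathways, out of 55487 genes listed in the counts. The set had an interferon-induced arm of 29 genes and an MHC class I arm of 10 genes, which were kept apart.

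The samples were cultures of C2C12, a mouse myoblast line of C3H origin that fuses into myotubes when serum is lowered. Differentiation in 2% horse serum took 5 days in every culture, and a 24 h period followed in medium with either 4% horse serum (control) or 4% STEM. STEM contains no cells and holds the proteins and other factors that human embryonic stem cells shed into their medium part of the way through differentiation. There were 6 libraries in each group, of which horse serum held numbers 1 to 6 and STEM held 7 to 12. STEM was given in place of serum, so the addition of STEM and the removal of horse serum cannot be told apart. The comparison addressed how the myotube transcriptome differed between both media. The labels do not say whether the libraries came from separate cultures, so the p-values measure the spread between libraries, which may be technical.

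Counts summed to between 13285472 and 24536264 per library. A first principal component, with 44.2% of the variance, ran from -35.5 to -24.6 in horse serum libraries 1 to 5 and from 15.5 to 28.6 in STEM. Horse serum library 6 stood apart from its group at 11.2 on this component and at -53.3 on the second, where the other 11 libraries lay between 0.216 and 11.8. Summed over 12 myotube markers, this library held 7467 CPM (counts scaled to library size by the TMM method) against 13523 to 14618 in the other horse serum libraries and 11451 to 14208 in STEM. It also held the highest horse serum sum of 4 markers of undifferentiated muscle cells, at 584 CPM against 425 to 503 in its group and 564 to 640 in STEM. Gene by gene, it was the highest of its group for 1 of these markers and the lowest for 2. Its mean log2 CPM over them, 5.98, lay within the 5.92 to 6.13 of the other horse serum libraries. Library 6 gave the highest horse serum value for 14 of the 22 tested interferon-induced genes and the lowest for 4, so the members' calls are given with and without it. The muscle markers also differed between the groups once library 6 was left out. Of the 12 myotube markers 2 were called higher and 2 lower with all libraries, near the 18.9% and 17.4% of all genes tested. Without library 6, 2 were called higher and 6 lower, where 26.3% and 24.5% of all genes were. Their median log2 difference was then -0.17, and 5 lay lower in STEM without overlap, where 16.5% of all genes did. The sums of undifferentiated cell markers did not overlap between the groups without library 6, but the single markers were split. Of the 4, 1 was called higher and 1 lower without it, with a median log2 difference of -0.04. Their mean log2 CPM overlapped, at 5.92 to 6.13 in horse serum libraries 1 to 5 and 5.96 to 6.17 in STEM. The part of these shifts in the results below was not tested. In bulk RNA, fewer cells of a kind and less RNA per cell cannot be told apart.

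Leukocyte and endothelial markers had few counts. Of 12 leukocyte markers, 2 had enough counts to be tested and neither was called, while 3 were tested and 1 was called higher without library 6. Of the 12, 8 had at most 3 counts in every library and 4 had 0 in all of them. Among these low ones, Ptprc, the pan-leukocyte phosphatase CD45, reached at most 1 count, and the macrophage markers Adgre1 and Tyrobp were at 0. Not all were this low, as the 2 tested markers had a mean log2 CPM of 1.72 to 2.13 in horse serum and 1.88 to 2.16 in STEM. The leukocyte markers summed to between 7.55 and 9.33 CPM in horse serum and between 8.26 and 10.3 CPM in STEM, and 5 endothelial markers to at most 0.785 and 1 CPM. Of 5 fibroblast markers, 3 were tested, 1 was called higher and 1 lower, or 2 and 1 without library 6, and their sum was 37.6 to 52 CPM in horse serum and 36.8 to 39.5 CPM in STEM. These calls stand beside 18.9% of all genes called higher and 17.4% lower, or 26.3% and 24.5% without library 6. The part of these markers in the results was not tested.

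The interferon-induced arm was split in direction. Of its 29 genes, 22 passed the filter on low counts, and the quasi-likelihood test of edgeR, with p-values adjusted by the Benjamini-Hochberg method over 14175 genes and a threshold of 0.05, called 4 higher and 6 lower in STEM. Over all genes tested, 18.9% were called higher and 17.4% lower, beside 4 and 6 of the 22 genes of the arm. Of those called lower, Irf7 and Rtp4 had few counts and may have passed the filter through horse serum, the group where they are higher. Trim21 lost its call in 11 of 18 alternatives. The count of genes called lower is therefore not read as an excess over all genes. The median log2 fold change was 0.03 over the 22 tested genes and 0.01 over all genes. Groups that did not overlap were found for 1 gene that rose and 4 that fell, where 8.68% and 8.52% of all genes did so. Without horse serum library 6, 21 of the genes were tested, 7 were called higher and 7 lower, and the median was 0.12. The background then was 26.3% and 24.5% of 14267 genes, with groups that did not overlap for 16.8% higher and 16.5% lower against 3 and 5 of the arm.

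In the MHC class I arm, 4 genes were called lower and 2 higher of the 8 that were tested, where the background was 17.4% and 18.9% of all genes. Its median log2 fold change was -0.15, and the groups did not overlap for 2 genes that fell and 1 that rose. Without library 6, 5 genes were called lower and 2 higher, with a median of -0.17 and 3 and 2 genes without overlap. The backgrounds without overlap and without library 6 are those given for the interferon-induced arm.

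**Figure D1:**
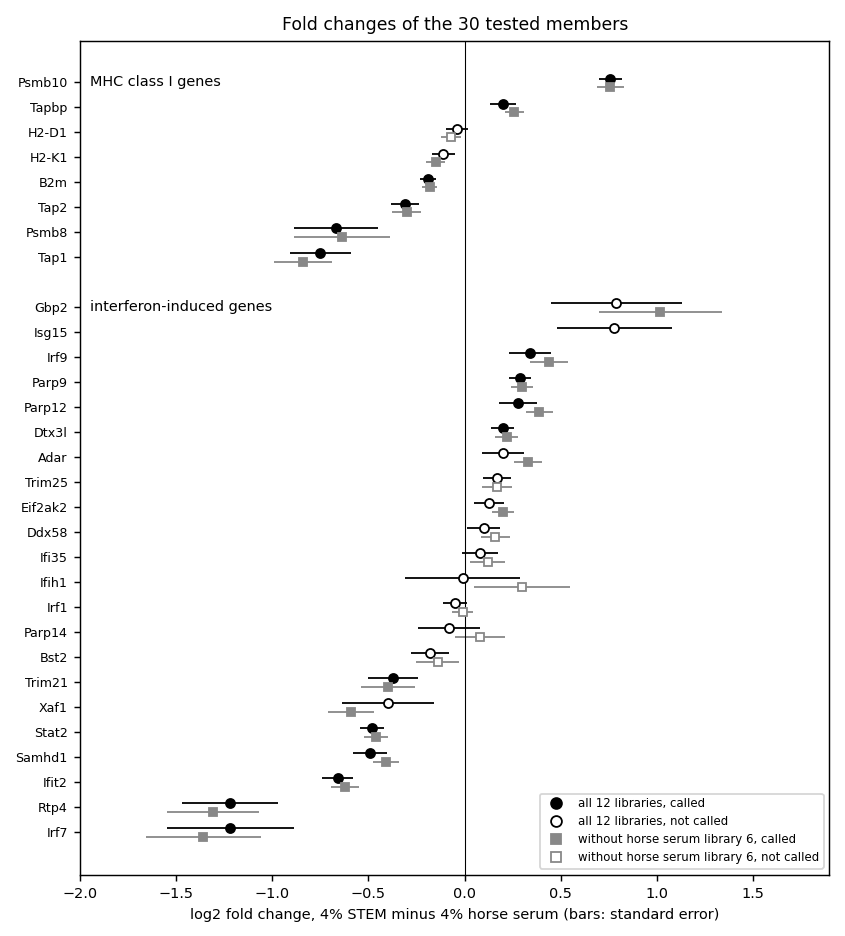
Log2 fold change of each of the 30 tested genes, STEM minus horse serum, with its standard error, for all 12 libraries (circles) and without horse serum library 6 (squares). Filled symbols passed an adjusted p of 0.05. With all libraries, Psmb10 lies at 0.76, Gbp2 at 0.79 and Isg15 at 0.78, the last 2 not called. Irf7 and Rtp4 lie at -1.22, and most other genes lie within the range from -0.75 to 0.34.

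The promoters of these genes were read to show which sequences the members share. RefSeq promoter windows of 300 bases, 250 of them before the transcription start, were found for 32 of the 39 genes on GRCm38.p6. Windows for Rtp4, Usp18, Nlrc5, Parp9, Parp14, Dhx58 and Tap2 were not analysed here. The core of the interferon-stimulated response element (ISRE), which IRF factors bind, was searched as GAAANNGAA on both strands. It was in the window of 15 of 24 interferon-induced genes and 1 of 8 MHC class I genes, against 9.76% of the 27025 genes with a window. All these shares count genes with a match in any of their windows. The gamma-activated site, bound by STAT factors, was searched as TTCNNNGAA, which reads the same on both strands. It was in 7 of 24 (29.2%) and 1 of 8 (12.5%) against 9.55%, and in 1 gene it overlapped an ISRE match. A κB site of the form GGGATTCCC, bound by NF-κB factors, was in 1 of 24 (4.17%) and 2 of 8 (25%) against 0.414%. A match is a run of letters in this window and no measured binding. Only these exact forms were searched, so a window without a match, as for the ISRE in H2-K1 and H2-D1, may still hold a variant element.

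The ISRE was set beside the calls made with all libraries. It was in 0 of 3 windows of interferon-induced genes called higher, 2 of 5 called lower, 8 of 11 not called and 5 of 5 of those with too few counts to test. Eif2ak2, Adar and Gbp2, counted here as not called, hold the ISRE and were called higher without library 6. The window of Xaf1, called lower without library 6, had no match. Of the MHC class I genes called lower, 1 of 3 windows held it, that of B2m. Stretches are printed for the genes that carry it and were called with all libraries or without library 6, and for Ifit1, which was chosen after its values were seen. ISRE letters are in capitals, and the form that starts with TTC is the same motif on the opposite strand. They are written 5′ to 3′ along the gene's strand, and a stretch that reaches into an annotated exon of the gene is cut shorter.
Stat2, chr10:128270252-128270310, + strand: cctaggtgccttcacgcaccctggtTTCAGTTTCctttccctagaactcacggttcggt
Trim21, chr7:102565448-102565476, - strand, in an exon: ctgagagGAAACTGAAAGTGAAatttgga
Gbp2, chr3:142620598-142620620, + strand, partly in an exon: ttttagtTTCACTTTCactgtct
Eif2ak2, chr17:78882533-78882561, - strand, in an exon: ccgccggGAAAACGAAACAGAAgagaacc
Adar, chr3:89730744-89730766, + strand, partly in an exon: aggaaacGAAAGTGAActctggg
Ifit1, chr19:34640755-34640838, + strand: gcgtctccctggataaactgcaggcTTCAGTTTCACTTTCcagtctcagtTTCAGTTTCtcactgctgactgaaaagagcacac
B2m, chr2:122147523-122147581, + strand: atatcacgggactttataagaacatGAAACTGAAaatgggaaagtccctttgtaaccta

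In the heavy chain genes the κB letters, in capitals, sat in the same surroundings. The 23 bases of both genes differed at 0 positions, and they are shown because this is the only motif of the search that both heavy chain genes carry.
H2-K1, chr17:34000442-34000464, - strand: agggctgGGGATTCCCcatctcc
H2-D1, chr17:35262917-35262939, + strand, in an exon: agggctgGGGATTCCCcatctcc

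Levels differed widely between the genes. In horse serum, B2m stood first at a median of 221 CPM per kilobase of exon, followed by the heavy chains H2-K1 at 38.1 and H2-D1 at 33.5 and by Tapbp at 18 CPM per kilobase. The highest interferon-induced gene was Irf1, at 11.9 CPM per kilobase in both groups. Of the interferon-induced genes, 15 lay at or above 1 CPM per kilobase and 14 under it, and the classic induced genes Isg15 (0.535), Ifit1, Rsad2 and Usp18 were among the low ones. In STEM the first 5 places were the same, Psmb10 moved from place 8 to 6 and Ifit2 from 7 to 13.

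**Figure D2:**
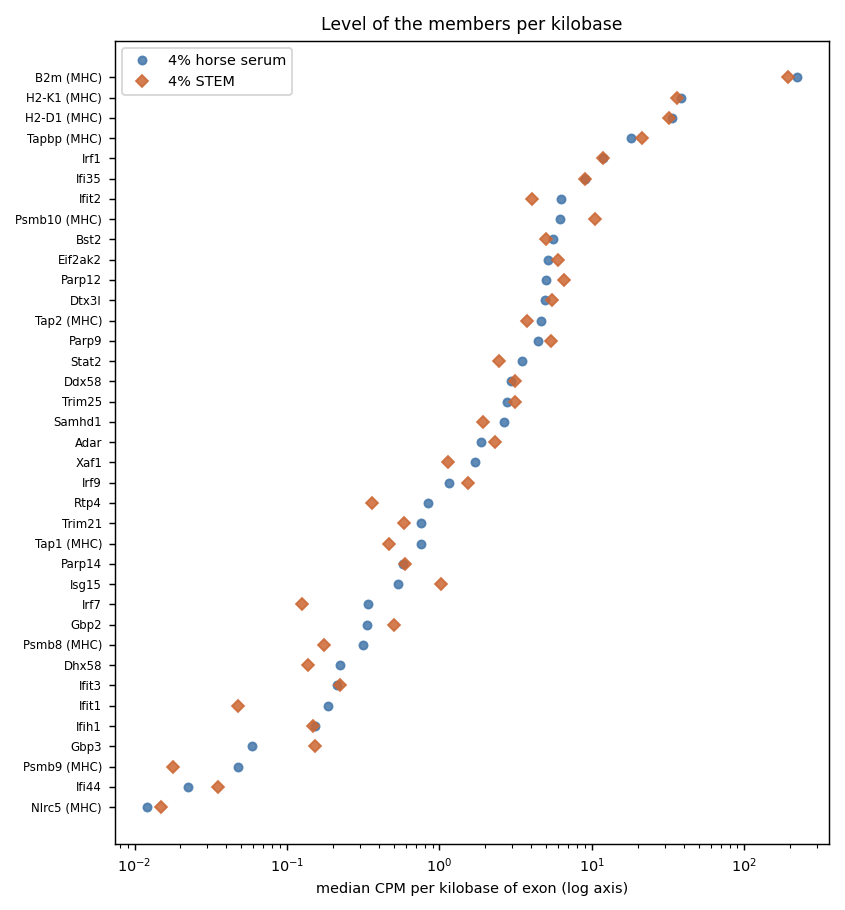
Median CPM per kilobase of exon (log axis) of the 37 genes with a median above 0 in a group, in 4% horse serum (circles) and 4% STEM (diamonds), ordered by the horse serum level. B2m is the highest at 221 and 194, and Nlrc5 the lowest at 0.0121 and 0.0148.

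The signalling inputs were looked at first. None of 21 interferon genes had enough counts to be tested, and no interferon gene had more than 2 counts in a library. Ifnb1, the interferon-β gene, was at 0 in all 12 libraries, which allows up to 3 counts in each, or 0.122 to 0.226 CPM. The receptors were present, with Ifnar1 at a median of 61.2 CPM in horse serum and 65.7 in STEM, Ifnar2 at 30.4 and 28.2, Ifngr1 at 55.7 and 55.4, and Ifngr2 at 52 and 45.5. None of these receptor chains was called with all libraries.

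Of 10 tested receptor, JAK and STAT genes, 1 was called higher and 0 lower, where 18.9% and 17.4% of all genes were. That gene was Jak2, a kinase of the interferon-γ and many cytokine receptors, which ran from 45.6 to 54 CPM in horse serum and from 55.9 to 62.4 in STEM. The groups did not overlap, and the log2 fold change was 0.27 ± 0.052 (SE; adjusted p = 0.000956), and 0.30 without library 6 (adjusted p = 2.07e-05). Without library 6 the counts were 2 higher and 1 lower, where 26.3% and 24.5% of all genes were called, with Ifnar1 at 0.14 (adjusted p = 0.0136) and Ifngr2 at -0.21 (adjusted p = 0.00474).

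Among the transcription factors of the arm, Stat2 and Irf7 fell, Irf9 rose and Irf1 was not called. Stat2 (ENSMUSG00000040033, chr10:128270559-128292849), the STAT of the type I interferon complex, ran from 19.2 through a median of 20.7 to 21.9 CPM in horse serum. In STEM it ran from 13.7 through 14.5 to 16.4 CPM. Every STEM library lay below every horse serum library, library 6 being the highest of all. The log2 fold change was -0.48 ± 0.062 (adjusted p = 3.54e-05), and -0.46 without library 6 (adjusted p = 7.45e-06). The ISRE printed above for this gene lies on the opposite strand, before the start.

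Irf9 is the DNA-binding partner of STAT2. It ran from 5.55 through 6.21 to 8.51 CPM in horse serum and from 7.1 through 8.24 to 9.21 CPM in STEM. Library 6 was the only horse serum library within the STEM range, and the groups no longer overlapped without it. In edgeR the change was 0.34 ± 0.11 on the log2 scale (adjusted p = 0.0292) and 0.44 without library 6 (adjusted p = 0.00111). The call was lost without horse serum library 1, 3 or 5 or STEM library 8 or 9, with adjusted p between 0.00111 and 0.0686 over all alternatives. Irf9 shares 123 exon bases with Rnf31 on the same strand.

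Irf7 drives a second wave of interferon genes and is strongly interferon-induced. It ran from 0.769 through 1.28 to 1.87 CPM in horse serum and from 0.269 through 0.472 to 1.12 CPM in STEM, or 4 to 31 counts a library. The ranges overlapped, with library 6 the lowest of its group. Together with Rtp4 it had the largest fall of the tested members, at -1.22 ± 0.33 (adjusted p = 0.00883). Without library 6 the change was -1.36 (adjusted p = 0.00101). Ifit1, which the filter left out, fell further in edgeR without a filter, at -2.27. Irf7 may have passed the filter through horse serum, the group where it is higher. Irf7 shares 45 exon bases on the opposite strand with Phrf1, which reached 1009 counts, and the effect of this on the counts was not tested.

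Irf1, a factor induced by interferon-γ, lay between 43.8 and 54.5 CPM in horse serum and between 43.3 and 49 CPM in STEM. The difference was -0.05 (adjusted p = 0.537) and -0.01 without library 6 (adjusted p = 0.848).

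The RNA sensors were not called with all 12 libraries. Ddx58 (RIG-I) had a median of 20.7 CPM in horse serum and 22 in STEM, a log2 difference of 0.10 (adjusted p = 0.398), or 0.16 without library 6 (adjusted p = 0.0885). Ifih1 (MDA5) had 1.25 and 1.2 CPM, with a difference of -0.01 that was 0.30 without library 6, and neither was called (adjusted p = 0.979 and 0.33). Dhx58 (LGP2) had 4 to 16 counts a library and was not tested.

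The calls of Eif2ak2 and Adar, which also act on double-stranded RNA, depended on library 6. Eif2ak2 (PKR), the kinase that halts translation on double-stranded RNA, ran from 24.5 through 26.2 to 34.2 CPM in horse serum and from 27.4 through 30.6 to 31.5 in STEM. Library 6 held the 34.2 CPM. The log2 difference was 0.13 (adjusted p = 0.226), and without library 6 it was called at 0.20 (adjusted p = 0.00678). Adar, the enzyme that edits adenosine in double-stranded RNA, ran from 13.7 through 15.1 to 22.8 CPM and from 16.4 through 18.9 to 20.3 CPM, with the 22.8 again in library 6. The difference was 0.20 ± 0.11 (adjusted p = 0.17), and it was called at 0.33 without library 6 (adjusted p = 0.00101).

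Of the 11 antiviral effectors 6 were tested, and 3 fell and 0 rose with all libraries, where 17.4% and 18.9% of all genes did. Without library 6, 4 fell and 1 rose, where 24.5% and 26.3% of all genes did. Ifit2 (ENSMUSG00000045932, chr19:34550694-34576419), which binds foreign RNA at translation, ran from 21.2 through 24.8 to 28.1 CPM in horse serum and from 13.4 through 15.8 to 16.9 CPM in STEM. The groups lay clear of each other. STEM minus horse serum gave a log2 fold change of -0.66 ± 0.080 (adjusted p = 2.06e-05) and -0.62 without library 6 (adjusted p = 1.11e-06).

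Its neighbours on chromosome 19 had few counts. Ifit1 held 4 to 20 counts a library in horse serum and 0 to 4 in STEM. The filter left it out of the main test. Without a filter, edgeR gave it -2.27 ± 0.48 (adjusted p = 0.000428), and DESeq2 gave -2.31 (adjusted p = 0.00071). Ifit3 held 4 to 8 counts in horse serum and 5 to 7 in STEM, a difference of -0.09 without a filter (adjusted p = 0.906). Of the 75-base words in Ifit3 transcripts, 41.1% also occur in Ifit3b, so its counts are uncertain.

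Samhd1 (ENSMUSG00000027639, chr2:157097533-157135265), which degrades the nucleotides that viruses copy with, ran from 22.2 through 24.3 to 31.6 CPM in horse serum. In STEM it ran from 16 through 17.8 to 21.2 CPM, below all horse serum libraries. This was a log2 fold change of -0.49 ± 0.089 (adjusted p = 6e-04), and -0.41 without library 6 (adjusted p = 6.02e-05), which held the 31.6 CPM.

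Rtp4 (ENSMUSG00000033355, chr16:23520291-23614222), a receptor transporter protein induced by interferon, ran from 1.18 through 1.78 to 2.12 CPM in horse serum and from 0.387 through 0.771 to 1.04 CPM in STEM. The groups did not overlap. The log2 fold change was -1.22 ± 0.25 (adjusted p = 0.00133) and -1.31 without library 6 (adjusted p = 0.000141). These are 6 to 31 counts a library, and Rtp4 shares 13.9% of its exon bases with Gm45338 on the same strand, so its counts are uncertain. Rtp4 may also have passed the filter through horse serum, the group where it is higher.

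The call of Xaf1, an interferon-induced factor tied to apoptosis, depended on library 6. The other 5 horse serum libraries lay between 7.79 and 9.24 CPM, library 6 at 2.46 CPM and the STEM libraries between 4.18 and 6.83 CPM. The log2 difference was -0.40 with library 6 (adjusted p = 0.219) and was called at -0.59 without it (adjusted p = 0.000347).

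Gbp2, a guanylate-binding GTPase induced by interferon-γ, ran from 0.0772 through 0.838 to 1.28 CPM in horse serum and from 0.856 through 1.26 to 1.84 CPM in STEM. The difference of 0.79 was not called (adjusted p = 0.0791) and was called at 1.02 without library 6 (adjusted p = 0.0133). Gbp3, a second GTPase of this family, held 1 to 12 and 7 to 11 counts and was not tested.

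The remaining effectors gave no call. Bst2 (tetherin), which holds budding virus at the membrane, lay between 4.71 and 5.89 CPM in horse serum and between 4 and 5.2 CPM in STEM, a difference of -0.18 (adjusted p = 0.173), or -0.14 without library 6 (adjusted p = 0.302). Rsad2 (viperin) had at most 4 counts in horse serum and 0 in all STEM libraries, and Ifi44 had at most 4 and 7, so neither was tested.

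Of ISG15, its protease and the ubiquitin ligases, Trim21 fell. Isg15, the ubiquitin-like protein that interferon adds to other proteins, had 0.206, 0.404 and 0.82 CPM as its lowest, median and highest value in horse serum and 0.539, 0.775 and 1.16 CPM in STEM. That is 3 to 18 counts a library. The difference of 0.78 ± 0.30 missed the threshold (adjusted p = 0.0534), and the gene did not pass the filter without library 6. It was called with limma-voom and without STEM library 12, with adjusted p between 0.0407 and 0.114 over the alternatives. Usp18, the protease that removes ISG15, had 0 counts in horse serum and at most 2 in STEM.

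Trim21, an antibody receptor of the cytosol, ran from 2.61 through 2.83 to 3.28 CPM in horse serum and from 1.84 through 2.16 to 2.84 CPM in STEM. The ranges overlapped, and the highest STEM library reached the horse serum median. In edgeR the change was -0.37 ± 0.13 on the log2 scale (adjusted p = 0.0356) and -0.40 without library 6 (adjusted p = 0.0242). The call was lost in 11 of 18 alternatives, DESeq2 and no filter among them, with adjusted p between 0.0131 and 0.129. Trim25, the ligase that activates RIG-I, lay between 15.2 and 16.7 CPM and between 15.8 and 21.1 CPM, with a difference of 0.17 (adjusted p = 0.0866; 0.0676 without library 6).

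The Parp9 and Dtx3l pair rose. These genes encode an ADP-ribosyl binding protein and a ubiquitin ligase that work as a complex. Parp9 (ENSMUSG00000022906, chr16:35938470-35972605) ran from 19.9 through 21.7 to 22.9 CPM in horse serum and from 25.1 through 26 to 28.4 CPM in STEM. It was the only tested member of the interferon-induced arm that rose with no overlap when all libraries were used. STEM minus horse serum gave a log2 fold change of 0.29 ± 0.056 (adjusted p = 0.00104), and 0.30 without library 6 (adjusted p = 0.000287).

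Dtx3l ran from 24.5 through 28 to 30 CPM in horse serum and from 29.7 through 31.3 to 35.2 CPM in STEM. A single STEM library lay within the horse serum range. This was a log2 fold change of 0.20 ± 0.060 (adjusted p = 0.017) and 0.22 without library 6 (adjusted p = 0.00561), and the call was lost with no filter on low counts (adjusted p = 0.0538). Both genes start head to head on chromosome 16 and share 458 exon bases on opposite strands, 8% of the exons of Dtx3l and 9.4% of those of Parp9. The strand setting of the counting is not given in the sources used here, so these counts may not be independent.

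Of the other PARP enzymes, Parp12 rose. It ran from 18 through 20 to 28.7 CPM in horse serum and from 23.3 through 26.2 to 29.1 CPM in STEM. Library 6 held the 28.7 CPM, and the groups did not overlap without it. The log2 fold change was 0.28 ± 0.10 (adjusted p = 0.0447), and 0.39 without library 6 (adjusted p = 0.000121). The call was lost in 11 of 18 alternatives, among them on leaving out any 1 of horse serum libraries 1 to 5, with adjusted p between 0.000121 and 0.103. Parp14 lay between 4.24 and 8.46 CPM in horse serum and between 4.2 and 6.33 CPM in STEM, and its difference was -0.08 with library 6 and 0.08 without it (adjusted p = 0.739 and 0.613). Ifi35, an interferon-induced leucine zipper protein, had 15.6 and 15.5 CPM as medians, with a difference of 0.08 (adjusted p = 0.523), or 0.12 without library 6 (adjusted p = 0.312).

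**Figure D3:**
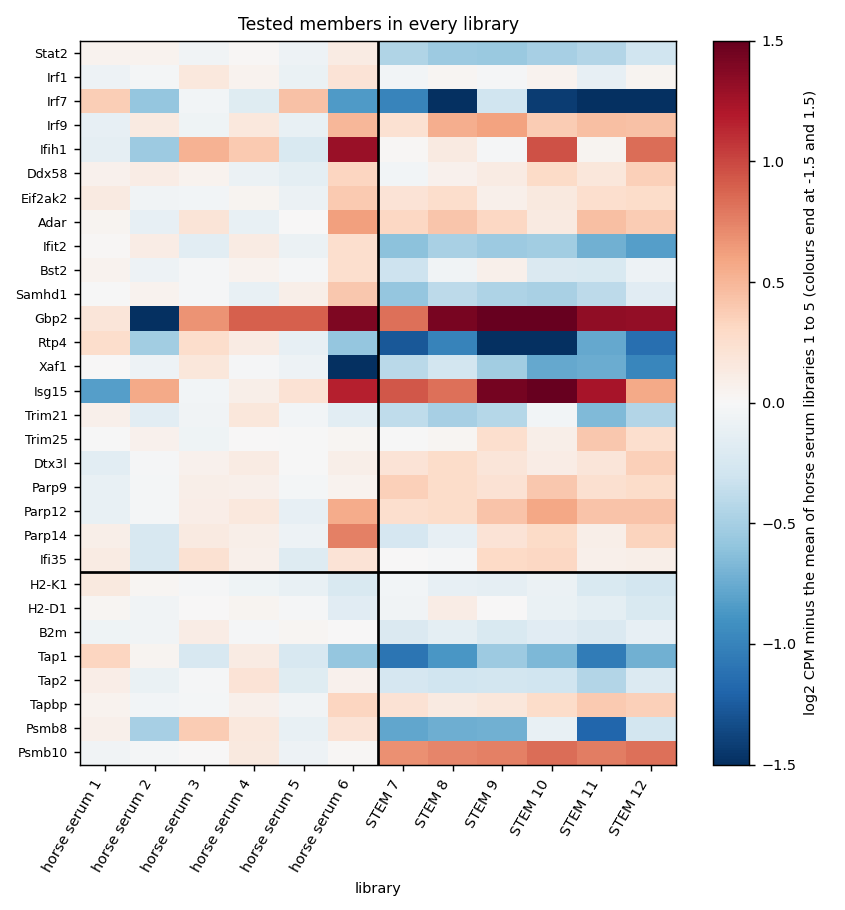
Each tested gene (rows, interferon-induced above and MHC class I below the line) in each library (columns), as log2 CPM minus the mean of horse serum libraries 1 to 5; blue is lower, red higher, and colours end at -1.5 and 1.5. Stat2, Ifit2 and Samhd1 are blue in all 6 STEM libraries, Psmb10 is red in all 6, and library 6 differs from its group, as for Xaf1 at 2.46 CPM in that library.

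In the MHC class I arm, the light chain fell slightly. B2m (ENSMUSG00000060802, chr2:122147686-122153083), the β2-microglobulin that every class I molecule needs at the surface, ran from 182 through 190 to 206 CPM in horse serum and from 163 through 167 to 175 CPM in STEM. No STEM library reached the horse serum range. In edgeR the change was -0.19 ± 0.041 on the log2 scale (adjusted p = 0.0028) and -0.18 without library 6 (adjusted p = 0.000628).

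Neither heavy chain was called with all libraries. H2-K1 ran from 98.6 through 112 to 128 CPM in horse serum and from 94.8 through 106 to 112 CPM in STEM. Library 6 held the lowest horse serum value. The difference of -0.11 was not called (adjusted p = 0.166) and was called at -0.15 without library 6 (adjusted p = 0.0202). H2-D1 lay between 77.1 and 89.3 CPM and between 74.3 and 93.4 CPM, a difference of -0.04, or -0.07 without library 6 (adjusted p = 0.29), and neither was called. Heavy chains are highly polymorphic between mouse strains and the reference is C57BL/6J, and 6.9% of the 75-base words of H2-D1 also occur in other genes, so these counts are uncertain. The effect of either on the counts was not tested.

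Both subunits of the peptide transporter fell, while tapasin rose. Tap1 (ENSMUSG00000037321, chr17:34187553-34197225) ran from 2.97 through 4.15 to 5.55 CPM in horse serum and from 2.08 through 2.55 to 3.03 CPM in STEM. Library 6 was the only horse serum library within the STEM range. STEM minus horse serum gave a log2 fold change of -0.75 ± 0.16 (adjusted p = 0.00213) and -0.84 without library 6 (adjusted p = 8.91e-05).

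Tap2 (ENSMUSG00000024339, chr17:34203527-34216321) ran from 15.2 through 17.6 to 19.9 CPM in horse serum and from 12.7 through 14.2 to 15 CPM in STEM. The groups did not overlap, though by a narrow gap. This was a log2 fold change of -0.31 ± 0.073 (adjusted p = 0.0043), and -0.30 without library 6 (adjusted p = 0.00308).

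Tapbp (tapasin), which holds the empty heavy chain at the transporter, ran from 62.5 through 65.4 to 81 CPM in horse serum and from 71.1 through 76.9 to 85.3 CPM in STEM. Library 6 held the 81 CPM, and without it every STEM library lay above the horse serum libraries. The log2 fold change was 0.20 ± 0.068 (adjusted p = 0.0313) and 0.26 without library 6 (adjusted p = 0.000302). The call was lost on leaving out any 1 of horse serum libraries 1 to 5 or STEM libraries 10 to 12, with adjusted p between 0.000302 and 0.0757 over all alternatives. Tapbp overlaps an antisense gene over 24.9% of its exon bases, and Zbtb22 on the same strand over 4.11%.

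The immunoproteasome subunits that were tested moved in opposite directions. The 3 subunits of this kind take the place of constitutive ones in cells exposed to interferon-γ, so they are often read as a unit. Psmb10 (ENSMUSG00000031897, chr8:105935735-105938444) ran from 10 through 10.5 to 11.7 CPM in horse serum and from 17 through 17.8 to 18.8 CPM in STEM. All STEM libraries lay well above all horse serum libraries. In edgeR the change was 0.76 ± 0.061 on the log2 scale (adjusted p = 4.56e-07), with the same 0.76 without library 6 (adjusted p = 2.99e-08).

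Psmb8 (ENSMUSG00000024338, chr17:34197721-34201454) ran from 0.695 through 1.06 to 1.27 CPM in horse serum and from 0.428 through 0.59 to 0.903 CPM in STEM, or 7 to 22 counts a library. The ranges overlapped. STEM minus horse serum gave a log2 fold change of -0.67 ± 0.22 (adjusted p = 0.0261) and -0.64 without library 6 (adjusted p = 0.0386). The call was lost with DESeq2, with no filter and without horse serum library 3 or STEM library 7 or 11, with adjusted p between 0.0156 and 0.0893. Psmb8 may have passed the filter through horse serum, the group where it is higher. Psmb9 held 1 to 7 and 0 to 4 counts and was not tested. Nlrc5, the transactivator of the class I genes, also had few counts, 1 to 7 in horse serum and 0 to 4 in STEM.

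Each subunit was also set against the constitutive one that it replaces within the same library, which needs no scaling between libraries. The ratio of Psmb10 to Psmb7 counts ran from 0.0405 through 0.0421 to 0.0548 in horse serum and from 0.0735 through 0.0797 to 0.0847 in STEM. The mean log2 ratio was -4.50 ± 0.17 (SD, n = 6) and -3.66 ± 0.091 (SD, n = 6), a difference of 0.84 in a two-sided exact permutation test (p = 0.00216, the smallest that 6 against 6 allows; 0.00649 adjusted over 3 ratios). Library 6 had the highest horse serum ratio, and the difference was 0.91 without it (exact p = 0.00216). Library 6 was also the lowest of its group for all 3 constitutive counterparts, which enters its ratio. Psmb10 alone changed by 0.76 with and without library 6, so Psmb7 enters these differences.

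The ratio of Psmb8 to Psmb5 ran from 0.00824 through 0.0119 to 0.0149 in horse serum and from 0.0045 through 0.00606 to 0.00891 in STEM. The ranges overlapped slightly. The log2 ratio fell by 0.84 (exact permutation p = 0.00649, adjusted 0.00974), and by 0.80 without library 6 (adjusted 0.0195). Psmb5 itself rose by 0.19 (adjusted p = 0.00223), which enters this ratio. Psmb9 to Psmb6 differed by -1.05 (exact permutation p = 0.132), on counts of at most 7 for Psmb9.

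**Figure D4:**
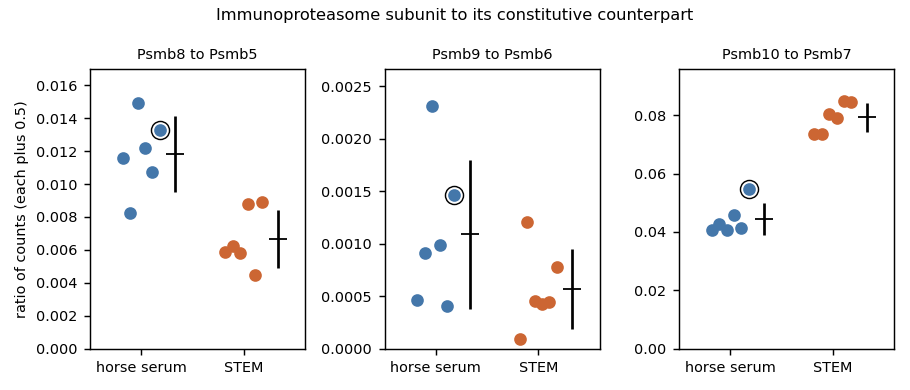
Ratio of counts, each plus 0.5, of each immunoproteasome subunit to its constitutive counterpart in every library, with the mean and SD beside each group of 6; horse serum library 6 is ringed. Psmb10 to Psmb7 is at least 0.0735 in all STEM libraries and at most 0.0548 in horse serum, and Psmb8 to Psmb5 is mostly lower in STEM.

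The genes of the transporter and of Psmb8 and Psmb9 lie side by side on chromosome 17. Psmb9 and Tap1 start head to head and share 212 exon bases on opposite strands, Psmb8 begins 496 bases after Tap1, and Tap2 begins 2073 bases after Psmb8. Tap1, Psmb8 and Tap2 of this cluster were called lower, Psmb8 not in every alternative. B2m was also called lower and lies outside the cluster, on chromosome 2. H2-K1, called lower without library 6, lies 181640 bases from Psmb9. The genes of the arm called higher lie outside the cluster too, Psmb10 on chromosome 8 and Tapbp at chr17:33915899-33929292.

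**Figure D5:**
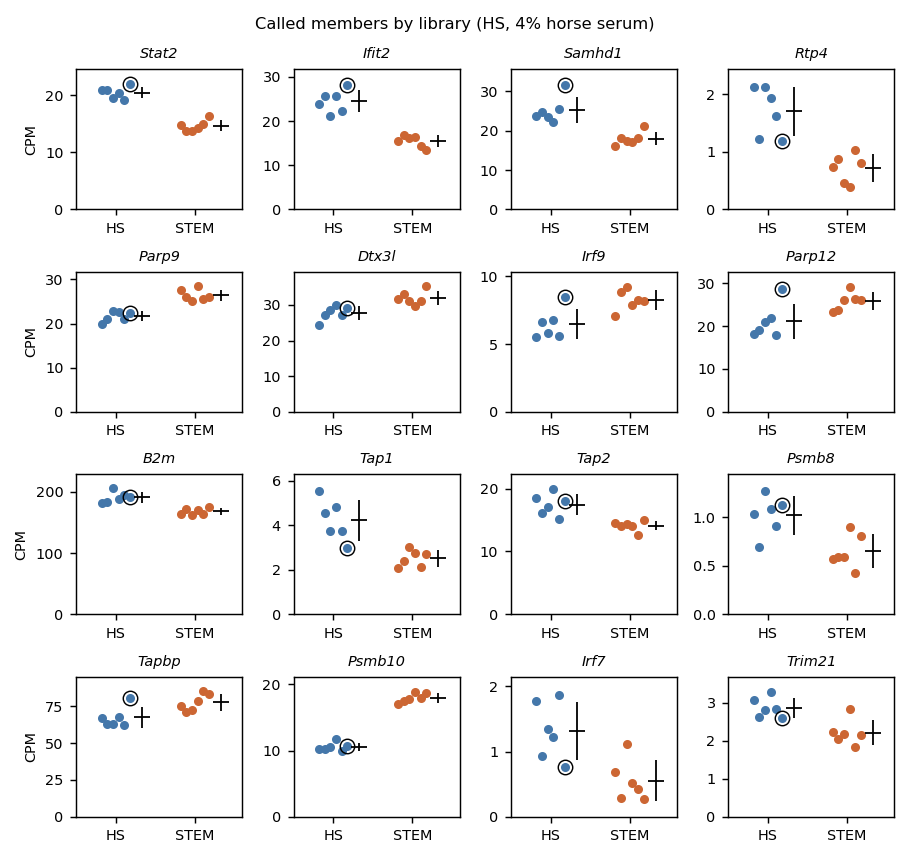
CPM of the 16 genes called with all libraries in each library, horse serum (HS) and STEM, with mean and SD beside each group of 6 and horse serum library 6 ringed; axes start at 0. Stat2, Ifit2, Samhd1, Rtp4, B2m and Tap2 lie lower in every STEM library and Parp9 and Psmb10 higher, and library 6 lies near the STEM values for Irf9 at 8.51 and Tapbp at 81.

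Other genes of the interferon pathway were counted from lists made for this purpose, to be read against 18.9% of all genes called higher and 17.4% lower, or 26.3% and 24.5% without library 6. Of 14 tested genes of nucleic acid sensing, 1 was called higher and 0 lower, which was Traf3, an adaptor on the way to IRF3. It ran from 23.4 to 35.2 CPM in horse serum and from 39.1 to 46.2 CPM in STEM, a log2 fold change of 0.57 ± 0.085 (adjusted p = 0.00013), and 0.65 without library 6. Without library 6, 3 were called higher and 0 lower. Of 10 negative regulators, 3 rose and 2 fell, with 5 and 2 without library 6. Socs1, the feedback inhibitor of JAK kinases, was among those that rose, from a median of 1.67 to 2.27 CPM at 0.52 ± 0.16 (adjusted p = 0.0162), and Pias1, an inhibitor of STAT signalling, fell by 0.23 on the log2 scale (adjusted p = 0.00133).

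Among 98 other interferon-induced genes, 52 were tested, 7 rose and 13 fell, beside 18.9% and 17.4% of all genes. The median log2 fold change was -0.07. Without library 6 the counts were 16 and 13, beside 26.3% and 24.5% of all genes. With all libraries fewer than the background share rose and more fell, and without library 6 both counts were near it. Zbp1, a sensor of Z-form nucleic acid, had the lowest p of this list and rose from 0.206, 0.535 and 1.33 CPM (lowest, median and highest) to 1.71, 2.22 and 3.24 CPM, at 1.82 ± 0.32 (adjusted p = 0.000453), and at 2.24 without library 6. At these low levels Zbp1 may have passed the filter through STEM, the group where it is higher. Pnpt1, an RNA-degrading enzyme of mitochondria, rose by 0.23 (adjusted p = 0.00227). Ube2l6, the enzyme that loads ISG15, fell by 0.44 on the log2 scale (adjusted p = 0.00252).

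Of 28 other MHC class I genes, 22 were tested, 5 rose and 5 fell, with 6 and 7 without library 6. These counts are near the shares of all genes called, which were 18.9% and 17.4% with all libraries and 26.3% and 24.5% without library 6. Of the 14 tested heavy chains and related genes, 1 rose and 4 fell, and of the 8 loading and trimming genes, 4 rose and 1 fell. Erap1, the peptidase that trims peptides in the endoplasmic reticulum, ran from 19.5 through 22.8 to 30.3 CPM in horse serum and from 33.3 through 38.6 to 44.8 CPM in STEM, at 0.72 ± 0.10 (adjusted p = 6.98e-05), and at 0.80 without library 6. Lnpep, a related peptidase of endosomes, fell by 0.45 (adjusted p = 0.000223), and H2-T22, a non-classical class I gene, by 0.36 (adjusted p = 0.000331). Of 12 MHC class II genes, 4 were tested and 1, Rfx5, fell by 0.25 (adjusted p = 0.00754), a regulator of class I and class II promoters alike. H2-Aa and H2-Ab1 were at 0 in all libraries.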

How the data were processed

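The authors deposited raw read counts per Ensembl gene for 12 libraries, without normalization. The paper's methods give a stranded library kit for total RNA with removal of ribosomal RNA. The submitters' processing notes name STAR 2.7.3a, featureCounts 1.6.3, DESeq2 1.26.0 and GRCm38. The strand setting and the annotation release are not given in the sources used here. The labels gave each library its group, and all 12 entered the main tests. The 39 genes and the other gene lists were chosen with earlier results of these data known. Symbols, coordinates and exon lengths came from GENCODE vM21 on GRCm38, and promoters from RefSeq on GRCm38.p6.

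Counts were tested with edgeR 4.0.16 (TMM, filterByExpr, robust glmQLFit and glmQLFTest) in R 4.3.3, STEM against horse serum, with Benjamini-Hochberg adjustment over all genes tested and a threshold of 0.05. The filter asks for enough counts in as many libraries as the smaller group holds, so a sparse gene can pass through its higher group. This may hold for Irf7, Rtp4, Psmb8, Isg15, Gbp2 and Zbp1. The steps were tested on simulated data. CPM were counts scaled to library size with TMM factors. Ratios of counts used 0.5 as pseudocount and a two-sided exact permutation test. Overlaps were counted with exons of other genes, and shared sequence as words of 75 bases found in transcripts of other genes. A group is said not to overlap when all its CPM lie to 1 side of the other. Totals ranged from 13285472 to 24536264 counts, and a count of 0 allows up to 3 counts. These floors cover counting error only.

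Alternatives were DESeq2 size factors and upper quartile scaling in edgeR, no filter, at least 10 counts in every library, DESeq2 1.42.0, limma-voom (limma 3.58.1), no pseudocount, and leaving out each library in turn. By rule, members called with all libraries or without horse serum library 6 were given in full, the others by values or ranges, and of each other list at most 3 called genes with the lowest p-values and genes whose level the account needs. Some genes that meet this rule are left out of the text.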

Additional observations from a re-analysis of the deposited data

Results flagged for a closer look

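In 66 sets of 6 libraries, 1 for each tested gene or ratio in each group, the farthest library was checked for standing apart from the others by Dixon's criterion, which chance meets in about 1 of 20 sets, or 3.3 of these. It was met 7 times, each time by horse serum library 6. That library was the highest of its group for Adar at 22.8 CPM (others 13.7 to 17), Bst2 at 5.89 (4.71 to 5.14), Samhd1 at 31.6 (22.2 to 25.4), Parp12 at 28.7 (18 to 21.8), Parp14 at 8.46 (4.24 to 5.5) and Tapbp at 81 (62.5 to 68.1). It was the lowest for Xaf1, at 2.46 CPM against 7.79 to 9.24. This library also held the lowest sum of myotube markers, and the part of that in these values was not tested.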

How the results depend on the processing

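Of the 10 interferon-induced genes called with all libraries, Stat2, Irf7, Ifit2, Samhd1, Rtp4 and Parp9 kept their call in every alternative that could be fitted, and of the 6 MHC class I genes, B2m, Tap1, Tap2 and Psmb10 did. Trim21 and Parp12 lost theirs in 11 of 18 alternatives, Tapbp in 8, Irf9 and Psmb8 in 5 and Dtx3l in 1. Without horse serum library 6, Eif2ak2, Adar, Gbp2, Xaf1 and H2-K1 were called too. Leaving out each library gave 2 to 7 interferon-induced genes called higher, where library 6 gave the 7 and horse serum 1, 3 and 5 and STEM 9 the 2, and 1 to 2 MHC class I genes called higher. Of the other interferon-induced genes, 6 to 16 were called higher, the 16 without library 6, and 8 to 13 lower, the 8 without STEM library 9. Ifih1, never called, changed sign to 0.01 with DESeq2 and 0.04 with limma-voom and ranged from -0.16 to 0.30 when each library was left out, and Parp14 from -0.14 to 0.08. The median of the interferon-induced arm ranged from -0.02 to 0.12. The ratio of Psmb9 to Psmb6 could not be computed without a pseudocount because of counts of 0. No paired analysis was possible because the groups share no replicate number. Depth limits the genes with few counts, such as Isg15, Irf7, Psmb8 and the interferon genes.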
